A study of Caenorhabditis elegans with 2 samples.

Results

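The 43 genes described here encode cyclins, cyclin-dependent kinases and their regulators, mitotic kinases, spindle checkpoint proteins, ubiquitin ligase subunits and the proteins that build the kinetochore and the central spindle. They were taken by symbol from the annotation of the nematode Caenorhabditis elegans, and all 43 were found among 19973 protein-coding nuclear genes. EFL-3 binding was mapped by ChIP-seq, in which DNA crosslinked to a protein is recovered with an antibody and sequenced. The worms were of strain OP344, which has the unc-119(tm4063) mutation and the integrated transgene wgIs344. This transgene holds efl-3 with a C-terminal TY1, EGFP and 3xFLAG tag, beside a functional unc-119 gene, and the antibody recognised GFP. There was 1 group of whole L1 larvae of mixed sex aged 6 hours, brought to the same stage by bleaching and starvation, with 2 biological replicates, so no groups were compared. Peaks in whole larvae do not show in which cells EFL-3 was bound, and the tagged protein was made from a transgene.

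Cyclins activate cyclin-dependent kinases, which drive cells into DNA replication and mitosis. Inhibitors of the CIP/KIP family and Wee1-type kinases hold these kinases back, and CDC25 phosphatases release them. E2F factors bind a GC-rich sequence in the promoters of many such genes and activate or repress them together with Rb-family proteins. EFL-3 belongs to the atypical E2Fs, which bind DNA without a dimerisation partner and are known mainly as repressors. In freshly hatched larvae that lack food, most blast cells rest in the cell cycle until feeding starts.

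The DNA under 5 of the peaks is shown first. Those of cdc-25.2, zen-4, cul-1 and bub-3 are the strongest near a gene start that had a match in both replicates. The peak of cyd-1 was added for the E2F sequence it holds, so this choice does not show how common such sequences are. The strongest peak near a start, at mdf-1, is not among them. Each run is the forward strand of WBcel235, 5′ to 3′, read within 100 bp of the summit. The E2F words TTTCCCGC, TTTCGCGC, TTTGCCGC and TTTGGCGC and the CHR words TTTGAA and TTCGAA, on either strand, are in capitals, and no E2F word contains a CHR word. The peak of cdc-25.2 lies at chrV:1567219-1567419, that of zen-4 at chrIV:6117782-6117982, that of cul-1 at chrIII:10471287-10471487 and that of bub-3 at chrII:13726295-13726495. The run of cyd-1, chrII:12980487-12980590, ends where its transcript begins.
cdc-25.2: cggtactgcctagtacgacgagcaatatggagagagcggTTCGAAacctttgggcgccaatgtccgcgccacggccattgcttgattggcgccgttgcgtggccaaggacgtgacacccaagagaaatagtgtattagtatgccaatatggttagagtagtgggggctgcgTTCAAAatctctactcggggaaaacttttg
zen-4: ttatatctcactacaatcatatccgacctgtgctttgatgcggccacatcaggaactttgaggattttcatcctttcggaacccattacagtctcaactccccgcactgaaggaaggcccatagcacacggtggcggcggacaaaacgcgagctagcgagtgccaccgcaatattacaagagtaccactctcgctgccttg
cul-1: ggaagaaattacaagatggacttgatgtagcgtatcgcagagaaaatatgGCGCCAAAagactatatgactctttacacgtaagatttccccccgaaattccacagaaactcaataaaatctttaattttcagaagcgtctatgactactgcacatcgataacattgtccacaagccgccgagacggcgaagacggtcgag
bub-3: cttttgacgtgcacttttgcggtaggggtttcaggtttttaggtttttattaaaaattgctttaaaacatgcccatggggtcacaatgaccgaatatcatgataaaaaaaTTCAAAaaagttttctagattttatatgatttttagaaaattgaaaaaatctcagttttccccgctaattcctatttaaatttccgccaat
cyd-1: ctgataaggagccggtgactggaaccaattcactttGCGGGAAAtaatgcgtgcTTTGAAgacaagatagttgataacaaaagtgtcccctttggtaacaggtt
The cul-1 and cyd-1 sequences hold an E2F word, and the cdc-25.2, bub-3 and cyd-1 sequences hold a CHR word. The zen-4 sequence holds neither.

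No reproducible peak lay at these genes. The deposited signal value measures a peak's enrichment and has no unit, and it is comparable only within a list. The promoter window of a gene was taken to start 1000 bp before any of its annotated transcript starts and to stop 500 bp after it. None of the 43 windows (0 genes) held a summit of the 430 reproducible peaks. Of all protein-coding genes 1.94% had one, a share under which fewer than 1 of 43 genes would have one, so the count of 0 does not set these genes apart. The weakest reproducible peak had a signal of 94.8, and the highest signal in a window of the 43 genes was 73.6, at mdf-1.

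Weaker peaks were present at many of the genes. In the relaxed list called on pooled replicates, which holds 30000 peaks, 26 of the 43 genes (60.5%) had a summit in the window, against 43.7% of all protein-coding genes. The difference depended on the window. From 500 bp before to 200 bp after a start, 13 of the 43 (30.2%) had a pooled summit, against 26.2% of all genes. These lists reach far into the background, and none of the 26 peaks had a q-value under 0.05; the lowest was 0.624. Replicate 1 had a summit at 25 of the 43 genes, where the background was 44.1%, and replicate 2 also at 25, where it was 44.8%. A summit was present in both replicates at 20 genes (46.5%), against 27.5%. The replicate summits lay within 100 bp of each other at 12 genes (27.9%), against 14.7%. These 12 were cdk-1, cdk-4, cki-2, cdc-25.2, air-1, air-2, icp-1, bub-3, mdf-1, cul-1, emb-30 and zen-4.

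**Figure D1:**
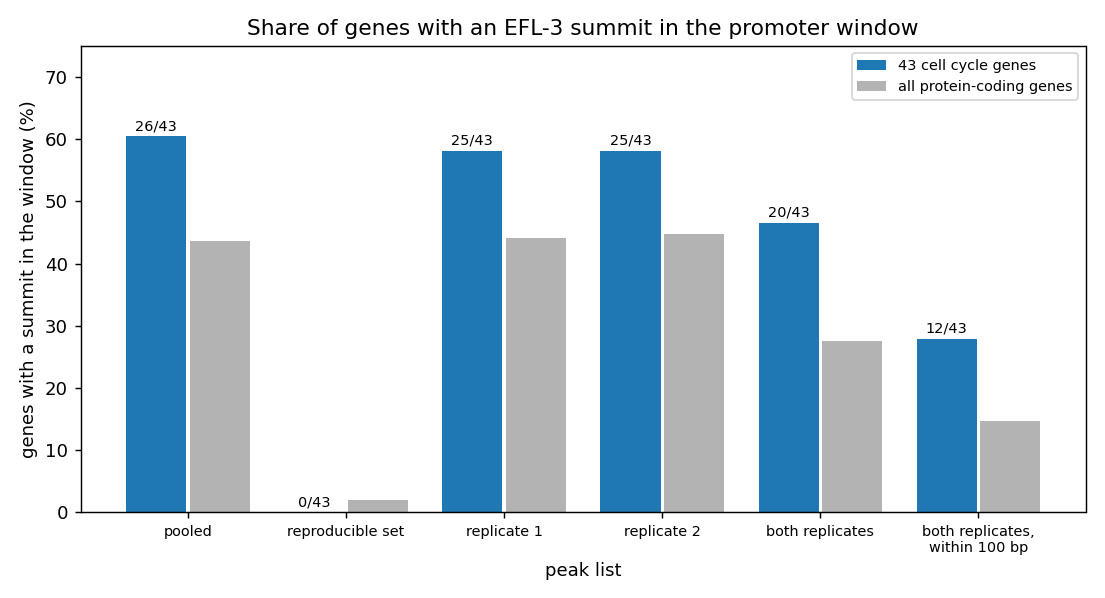
Share of genes with an EFL-3 summit in the promoter window (%), for the 43 cell cycle genes and for all 19973 protein-coding genes, in each peak list or combination of lists, with the window of 1000 bp before to 500 bp after a start. The cell cycle genes stand higher in every relaxed list, with 60.5% against 43.7% in the pooled list, and at 0 in the reproducible set, where all genes are at 1.94%; the narrower window, with pooled shares of 30.2% and 26.2%, is not drawn.

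The signals of the 26 genes ran from 34.6 at bub-1 to 73.6 at mdf-1, with a median of 55.7. For all genes with a pooled summit in the window the median was 44.8. With 0 for genes that had no summit, the medians were 44.0 over the 43 genes and 0 over all genes. Among the 43, 13 (30.2%) exceeded 56.2, the signal that 10% of all genes exceed. The 3000 strongest pooled peaks held the strongest summit of 10 of the 26 genes, and of 1574 of the 8728 genes with a summit genome-wide.

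**Figure D2:**
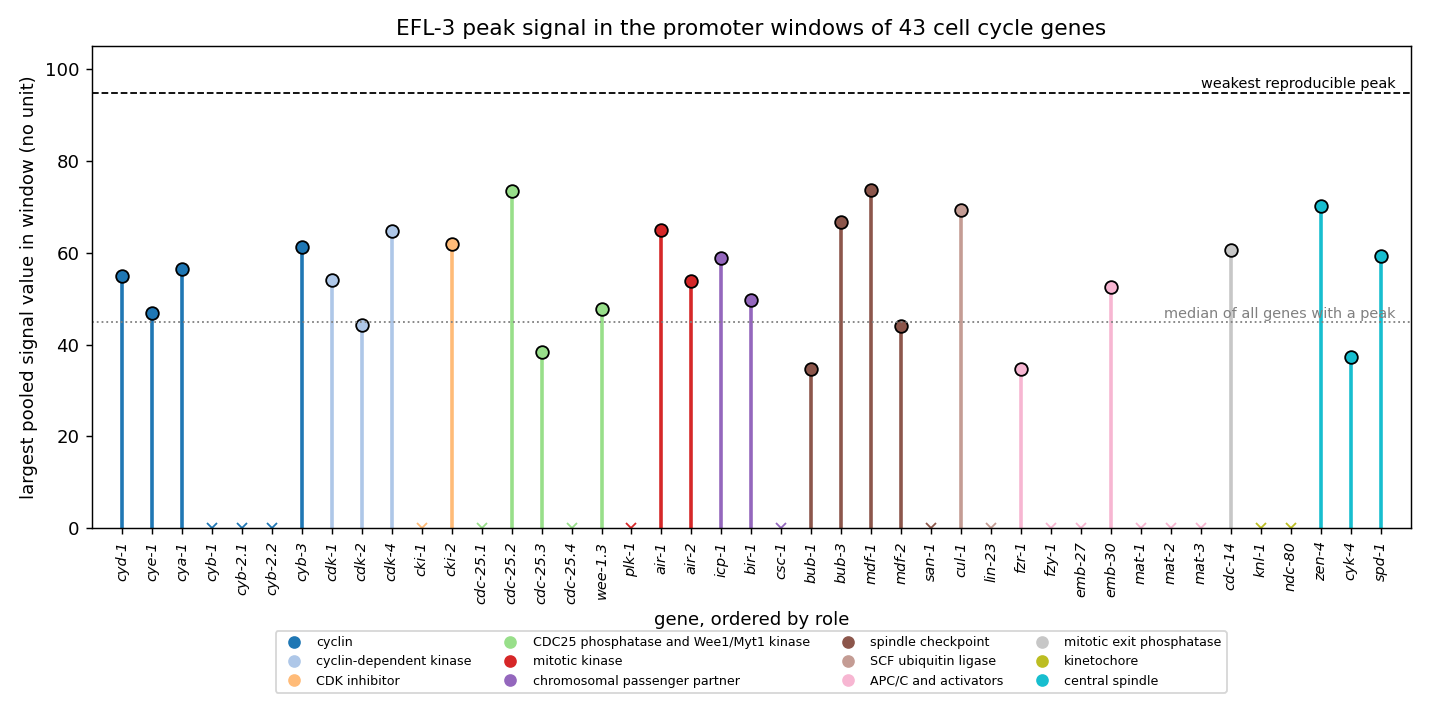
Largest pooled signal value (no unit) in the promoter window of each gene, ordered and coloured by role, with 0 for genes that had no summit. Every gene lies below the weakest reproducible peak at 94.8, and mdf-1, cdc-25.2, zen-4 and cul-1 stand highest.

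In what follows, summits are those inside a gene's window, and replicate values are those of a replicate summit within 100 bp of the pooled one unless a position is given. The roles hold 1 to 7 genes each, so their counts are given as values and not read against the share over all genes. Among the cyclins, 4 of 7 had a pooled summit, and none had replicate summits at the same site. The gene of cyclin D, cyd-1, which acts with CDK-4 in G1, had 3 summits in its window. The strongest, 4 bp upstream of a start, had a signal of 54.9 and rank 4701 and was matched in replicate 2 alone, with a signal of 23.8. Replicate 1 peaked elsewhere in the window, 205 bp downstream of a start, with a signal of 34.9. The gene of cyclin E, cye-1, which acts at entry into replication, had a signal of 46.8 at 507 bp upstream. That summit lay nearest to the start of the neighbouring gene pqn-21 and was matched in replicate 2 with a signal of 36.2, and replicate 1 had no summit in the window. The opposite held at cyb-3, a B-type cyclin gene of mitosis, whose intronic summit 228 bp downstream of a start had a pooled signal of 61.3 and 39.4 in replicate 1, with none in replicate 2. At the cyclin A gene cya-1 the pooled signal was 56.5, and the replicates peaked at different places, 810 bp upstream in replicate 1 (36.2) and 632 bp upstream in replicate 2 (24.5). The mitotic B-type cyclin genes cyb-1, cyb-2.1 and cyb-2.2 had no summit in any list.

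All 3 kinase genes had a pooled summit. At cdk-4, the cyclin D partner, the signal was 64.8 and the summit lay 268 bp upstream of a start. It was uneven between the replicates, with a signal of 46.2 and rank 563 in replicate 2 but 20.1 and rank 24516 in replicate 1. The mitotic kinase gene cdk-1 had a summit in its own coding exon, 68 bp downstream of a start, with 54.1 in the pooled list, 22.6 in replicate 1 and 32.9 in replicate 2. At cdk-2, the kinase of replication entry, the signal was 44.3 at 721 bp upstream, and only replicate 1 had a summit (28.1).

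The CIP/KIP inhibitor genes differed in where their replicates peaked. At cki-2 the summit lay 919 bp upstream in a noncoding exon of T05A6.19, with 61.8 in the pooled list, 30.2 in replicate 1 and 24.5 in replicate 2. At cki-1, which holds larval blast cells in G1, no pooled summit lay in the window, although replicate 1 had one of 29.5 at 274 bp upstream and replicate 2 one of 21.7 at 324 bp downstream.

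Of the genes that set the phosphorylation of these kinases, cdc-25.2 stood out within the group. This CDC25 phosphatase gene had 3 pooled summits, and the strongest, in an intron 243 bp downstream of a start, had a signal of 73.5 and rank 1094. It was present in both replicates, with 29.9 in replicate 1 and 41.0 in replicate 2. Its place in the window rests on a start of a transcript not annotated as protein-coding. With starts of protein-coding transcripts alone, the largest signal at cdc-25.2 was 40.6. At its paralog cdc-25.3 the signal was 38.4, matched in replicate 2 alone (28.0), and cdc-25.1 and cdc-25.4 had no summit in any list. The inhibitory kinase gene wee-1.3 had an intronic summit of 47.8. It was matched by 23.9 in replicate 1 and 21.0 in replicate 2, but these lay on different sides of it, more than 100 bp apart.

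Both Aurora kinase genes had a summit that the replicates shared. At air-1, which encodes Aurora A of the centrosomes, the signals were 65.0 pooled, 27.4 in replicate 1 and 29.7 in replicate 2. The summit lay 455 bp upstream within a coding exon of cogc-6, whose start was nearer. At air-2, which encodes Aurora B of the chromosomal passenger complex, they were 53.8, 30.8 and 22.2, at 240 bp upstream in the 5′ UTR of B0207.6, whose start was again nearer. The Polo kinase gene plk-1 had no pooled summit and 1 weak summit in replicate 2 (21.4, rank 20013).

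The partners of Aurora B in the passenger complex are ICP-1 (INCENP), BIR-1 (survivin) and CSC-1. The icp-1 summit lay in a coding exon 413 bp downstream of a start, with 58.9 pooled, 32.1 in replicate 1 and 26.6 in replicate 2. That start is the inner of 2 annotated ones, and the window of the outer start does not hold the summit. At bir-1 the pooled signal was 49.7, with 27.9 in replicate 1 and no summit in replicate 2. At csc-1 only replicate 1 had a summit (21.0).

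Among the spindle checkpoint genes, which delay anaphase until chromosomes are attached, 4 of 5 had a pooled summit. The Mad1 gene mdf-1 held 2 summits. The stronger, 517 bp upstream in the 3′ UTR of the histone gene his-35, had 73.6 pooled and 38.4 in replicate 1, with no match in replicate 2. The weaker, 716 bp upstream, had 47.6 pooled, 26.8 in replicate 1 and 28.4 in replicate 2, so the replicates shared this one. The stronger of 2 bub-3 summits lay in an intron 333 bp downstream of a start. It had 66.7 in the pooled list, against 34.2 in replicate 1 and 22.5 in replicate 2. The next genes were weaker. The Mad2 gene mdf-2 had 44.0 at 5 bp upstream, matched in replicate 2 alone (21.2), and bub-1 had 34.6 with no match in either replicate, in a coding exon of lin-61. The fifth gene, san-1, had no summit in its window in any list.

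Of the ubiquitin ligase genes, cul-1 was the highest. It encodes the cullin scaffold of the SCF ligases, and its loss causes excess cell divisions in worm larvae. Its intronic summit 150 bp downstream of a start had 69.2 pooled. In replicate 2 it had a signal of 47.2 and rank 520, the best rank of the 43 genes in either replicate, and in replicate 1 it had 23.3 and rank 16332. The F-box gene lin-23, whose protein is also part of an SCF ligase, had no summit in any list.

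Of the genes of the anaphase-promoting complex (APC/C), the ligase that ends mitosis, and its activators, 2 of 7 had a pooled summit in the window, and 6 of 7 had one when the gene body was included. The subunit gene emb-30 had 52.4 at 125 bp downstream in a coding exon, matched in replicate 2 alone (21.5). Elsewhere in the window both replicates had summits within 100 bp of each other. The activator gene fzr-1 had 34.7 at 877 bp upstream. The activator gene fzy-1 and the subunit genes emb-27 and mat-2 had no summit in any list. The subunit genes mat-1 and mat-3 had a summit in a single replicate, of 22.0 in replicate 1 and 20.3 in replicate 2. The phosphatase gene cdc-14, which acts against cyclin-dependent kinases, had 60.6 pooled, matched in replicate 2 (36.9).

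The 2 genes of the outer kinetochore, knl-1 and ndc-80, had no summit in any list, and all 3 genes of the central spindle had a pooled one. The central spindle is the microtubule bundle that guides cytokinesis. At zen-4, a kinesin of the centralspindlin complex, the summit lay in intergenic DNA 333 bp upstream, with 70.2 pooled, 30.6 in replicate 1 and 34.8 in replicate 2. Of the 3 genes with the highest pooled signals, mdf-1, cdc-25.2 and zen-4, the latter pair were matched in each replicate. The microtubule bundler gene spd-1 had 59.2 and cyk-4, the other centralspindlin gene, had 37.3, both matched in replicate 2 alone (34.8 and 35.3). Their summits lay 838 and 979 bp upstream, and another gene's start was nearer to each.

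The replicates often differed at a given summit, at these genes and over all genes. Of the 26 strongest summits, 11 (42.3%) were matched within 100 bp in both replicates, 6 in replicate 1 alone, 8 in replicate 2 alone and 1 in neither. Over all genes with a pooled summit, 32.7% were matched in both. Replicate 1 matched 65.4% of the 26 summits, against 61.7% over all genes with a summit. Replicate 2 matched 73.1%, against 60.8%. None of the 43 genes had a replicate summit in its window among that replicate's 430 strongest peaks, which reached down to a signal of 54.0 in replicate 1 and 49.5 in replicate 2. The share of all genes with such a summit is not given, and the reproducible set of the same size reached 1.94% of all genes. This absence therefore does not set the 43 genes apart. The largest signals in the windows were 39.4 in replicate 1, at cyb-3, and 47.2 in replicate 2, at cul-1.

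**Figure D3:**
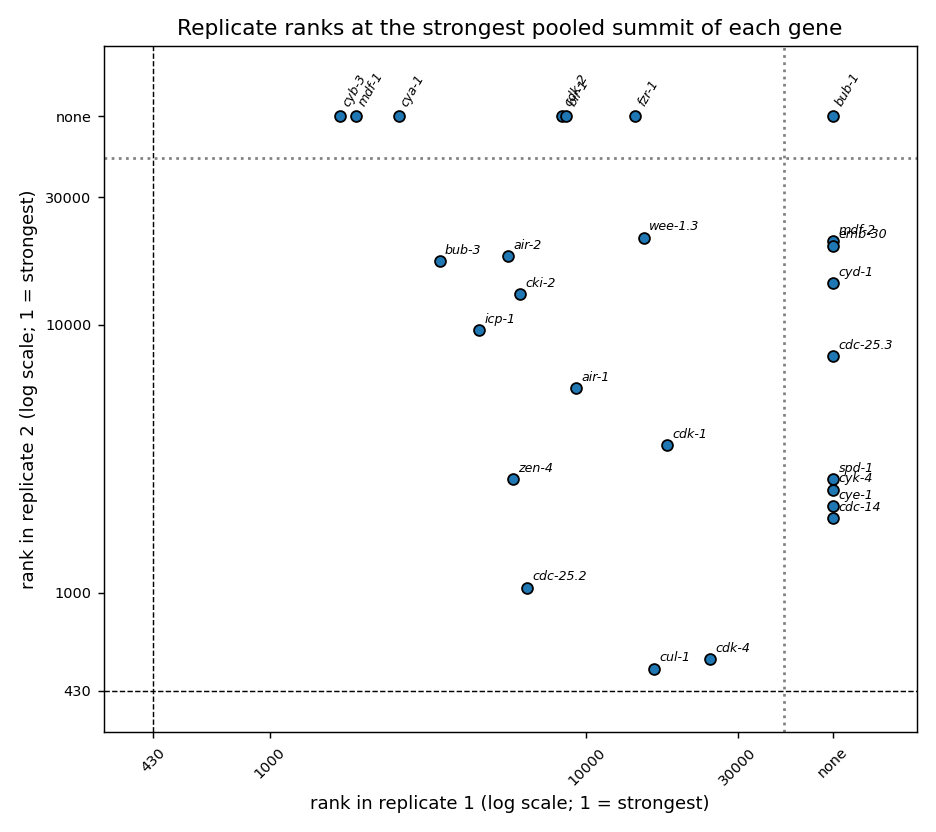
Rank of the matching summit in replicate 1 (x axis, log scale) and replicate 2 (y axis, log scale) for the strongest pooled summit of each of 26 genes, with none where no replicate summit lay within 100 bp. The 11 genes matched in both replicates lie inside the axes, and cul-1 and cdk-4 rank far higher in replicate 2 than in replicate 1.

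The summits were spread over the whole window, and so were those of all genes. Of the 26 strongest, 9 (34.6%) lay more than 500 bp upstream, 8 (30.8%) within 500 bp upstream, 3 (11.5%) up to 200 bp downstream and 6 (23.1%) farther downstream. Over all genes with a pooled summit these shares were 27.3%, 34.8%, 18.1% and 19.8%. The median distance from the nearest start was 325.5 bp, and over all genes with a pooled summit it was 305 bp. Intergenic sequence held 11, introns 5, coding exons 7, and a 5′ UTR, a 3′ UTR and a noncoding exon 1 each. These places are given as values, without a share over all genes. For 12 of the 26 (46.2%) the summit also lay in the window of another protein-coding gene, against 26.4% over all genes with a summit. At 6 of the 26, namely cye-1, air-1, air-2, bub-1, cyk-4 and spd-1, another gene's start was nearer. The gene's own start was thus nearest for 76.9% of the 26, against 85.1% over all genes with a summit. A peak in such shared DNA cannot be assigned to one gene.

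E2F words were more frequent in the promoters of these genes than in those of all genes. Of the 43 promoter windows, 21 (48.8%) held at least 1 E2F word, against 22.3% of all genes. The next count took 1 window per gene, from its outermost start, and a limit chosen after the data were seen. Within that limit of 250 bp upstream of a start, 12 of 43 (27.9%) held an E2F word, against 4.35% of all genes. These were cyd-1, cdk-2, cki-2, cdc-25.2, air-2, icp-1, bir-1, csc-1, bub-3, san-1, knl-1 and ndc-80. In the reordered words TCTCGTCC, TCTCGTGC, TCTGGTCC and TCTGGTGC, the same letters in another order, the count over the window was 4 (9.30%), against 8.66% of all genes, taking 1 window per gene from its outermost start. The words CTCGTCTC, CTCGTGTC, GTCGTCTC and GTCGTGTC gave 4.65% against 10.1%, and CGTCTTCC, CGTCTTGC, CGTGTTCC and CGTGTTGC gave 13.95% against 10.7%. The E2F words gave 48.8% against 19.6% in that window, whose median GC content was 37.4% in the 43 genes and 35.2% in all genes.

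The words of 8 genes are shown in 30 bases each, read in the direction of the word, which is in capitals. They were chosen to show both a word at a summit (cyd-1 and cul-1) and words close to the start of genes whose summit lay elsewhere or that had none. They come from chrII:12980512-12980541, chrIII:10471326-10471355 and chrIV:10085901-10085930, chrV:11644364-11644393 and chrII:13596779-13596808 on the reverse strand, and from chrII:7816343-7816372, chrII:13725978-13726007 and chrIII:8250491-8250520 on the forward strand of WBcel235.
cyd-1: agcacgcattaTTTCCCGCaaagtgaattg
cul-1: tcatatagtctTTTGGCGCcatattttctc
cki-2: tgataatctggTTTGCCGCatttctcgcgg
bub-3: aattttttccaTTTCGCGCgcgcgcatttt
bir-1: gcactgacgaaTTTCGCGCtgaaatataca
csc-1: aatcgaaaaatTTTCGCGCtcgcattcggt
knl-1: tcaaacagagaTTTGCCGCcaagcaaaact
ndc-80: cacatttgaatTTTCCCGCtatagcaattg
The word of cyd-1 lay 65 bp upstream of a start and 61 bp from a pooled summit, and that of cul-1 lay 103 bp downstream of a start and 47 bp from a summit. At bub-3 the word lay 70 bp upstream and 380 bp from the summit. At knl-1, with a word 127 bp upstream, the closest pooled summit was 3003 bp away, and at ndc-80, with a word 222 bp upstream, it was 1055 bp away.

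Over the 23 E2F words in the windows, the median distance to the closest pooled summit was 638 bp, and 4 words lay within 100 bp of one, at cyd-1, cul-1 and cye-1, the last with 2. At cye-1 one word lay on the summit and the other 19 bp from it. Distances from words to summits were not computed over all genes, so these are given as values. Counted from the summits, 3 of the 26 genes (11.5%) had a word within 100 bp of the strongest summit. The share was 3.98% over all 8728 genes with a pooled summit, 4.15% of all pooled peaks and 7.44% of the reproducible peaks. CHR words, bound by the DREAM complex, lay near the summit of 13 of the 26 genes, against 44.9% of genes with a summit. A word match is a description and not a bound site, and no match says only that these letters are absent from the window. A pooled summit was present in 14 of the 21 genes with a word in the window (66.7%) and in 12 of the 22 without (54.5%). For all genes these shares were 51.8% and 41.4%.

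**Figure D4:**
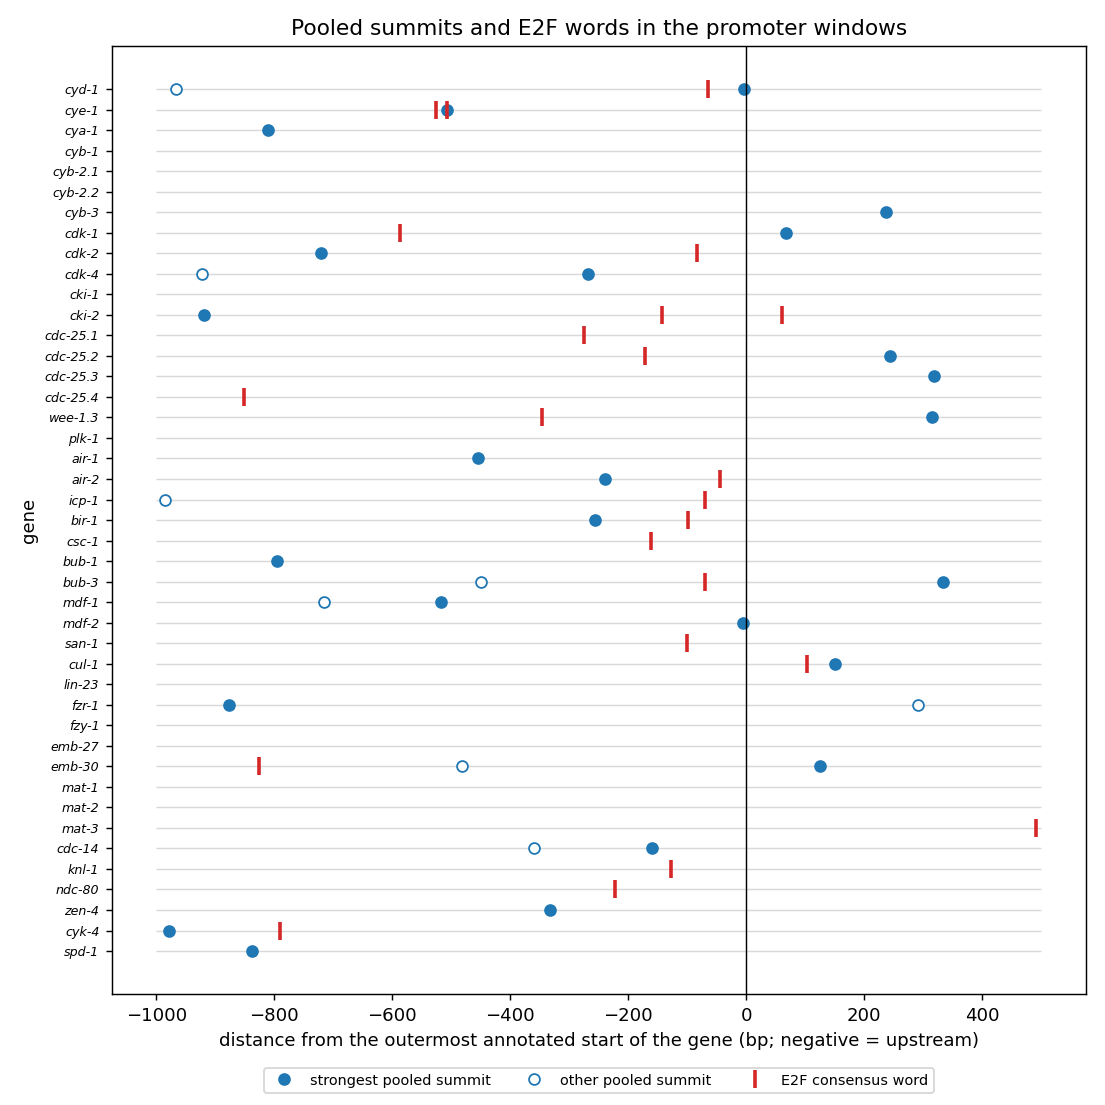
Position of pooled summits (circles, the strongest filled) and E2F words (red ticks) along the window of each gene, in bp from its outermost annotated start, with upstream to the left; 33 pooled summits are drawn, and 5 that lie in the window of another start of the same gene are not, among them the strongest of icp-1. The words lie mainly upstream and close to the start, and 4 of the 23 lie within 100 bp of a pooled summit.

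Beyond the promoter windows, peaks of the genes reached higher. The largest pooled signal anywhere from 1000 bp upstream to the end of a gene was in an intron of cyd-1, 3588 bp downstream of a start at position 12991811 of chromosome II. It had a pooled signal of 87.0 and rank 562, ranked 2229 in replicate 1 and 880 in replicate 2, and was below the reproducible threshold. Gene bodies held a larger summit than the window in 16 of the 43 genes (37.2%), against 29.2% of all genes, among them fzr-1 (61.9), mdf-2 (61.5) and mat-3 (53.2). At fzr-1 and mdf-2 the summit lay in an annotated 3′ UTR and was matched in both replicates. No pooled summit in window or body was found at 8 of the 43 genes (18.6%), against 36.9% of all genes. They were cyb-1, cyb-2.1, cyb-2.2, cki-1, cdc-25.1, cdc-25.4, plk-1 and emb-27. The closest reproducible summit to any start of the 43 lay 2798 bp upstream of mdf-1, with a signal of 107.4, followed by one 4319 bp downstream of the cdk-4 start, with 140.5.

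Repeated sequence touched few of the windows. In 36 of the 43 windows no 50-base word had a second copy in the genome, a count not made for other genes. The exceptions above 10% of words were cyb-2.1 (17.4%), cyb-2.2 (16.3%) and bir-1 (11.8%), so reads there may be shared with another locus. Of the 26 peaks, bub-3 (19.0%) and bir-1 (8.46%) held such words.

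Other genes of the same processes gave a setting for these counts. Of 95 further cell cycle genes in 6 lists, 56 (58.9%) had a pooled summit, against 43.7% of all protein-coding genes. A reproducible summit was present at 4 of the 95, where the share over all genes was 1.94%. The 4 were scc-2, which loads cohesin (signal 179.8), the cohesin gene smc-3 (107.2), the centrosome scaffold gene spd-5 (106.7) and the condensin gene hcp-6 (102.7). Only the scc-2 summit lay in no other gene's window. The smc-3 summit was nearest to the start of mib-1 and also lay in the window of gly-9. Those of spd-5 and hcp-6 also lay in the windows of npp-6 and let-630. The lists are small, so the counts that follow are given as values and not read against the share over all genes. Other kinetochore and checkpoint genes had a pooled summit in 5 of 16, and the 2 kinetochore genes of the main group in 0. Cohesin, separase and condensin genes had one in 12 of 15, centrosome and spindle genes in 14 of 19, other APC/C and SCF genes in 11 of 16, other cyclins and cyclin-dependent kinases in 9 of 19 and cytokinesis genes in 5 of 10.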

How the data were processed

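ChIP-seq of tagged EFL-3 in 2 biological replicates was read from 4 peak lists deposited by the authors on ce11, the same assembly as WBcel235. Signal values and −log10 q-values are as deposited by the authors, who called peaks per replicate and on pooled replicates and kept a reproducible set, per the labels. The software for peaks, its settings and the threshold of reproducibility are not stated in the sources used, and read depth is unknown, so no interval is given. The control library was not analysed here. Replicates measure only the spread between these samples.

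Summits were placed from each peak's start and deposited offset and assigned to any protein-coding gene of Ensembl release 115 whose window they entered. A gene's value was its largest signal. Replicate summits within 100 bp counted as the same site, and sequence came from the RefSeq genome of the same assembly. Exact words were searched on both strands. Scripts ran in Python 3.11.15 with numpy 2.4.6, and counting was tested on simulated peaks. No statistical test was made, since there was 1 group.

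The 43 genes, their 12 roles and the 97 other genes looked for (2 symbols were not found) were chosen with earlier results of these data known. The E2F words over whole windows, the 250 bp limit, the reordered words and the copy count were added after the data were seen. All 43 genes were named. Alternatives covered the window, the transcripts, assignment to the nearest start, peak overlap, the stronger peaks of each list, site distance, word distance and each replicate left out.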

Additional observations from a re-analysis of the deposited data

How the results depend on the processing

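No reproducible summit was found over the whole gene body, where 2.26% of all genes had one. None was found by any overlap of a peak with the window, where 2.03% did. At shares this low, the absence does not set these genes apart. Nor was a summit found among the 430 strongest peaks of either replicate alone, for which no share over all genes is given. The other settings could only remove reproducible summits or left them as they were. The number of genes with a pooled summit varied most with the window. From 500 bp upstream to 200 bp downstream, 13 genes (30.2%) had a pooled summit (against 26.2% of all genes), 9 (20.9%) had summits in both replicates (against 13.6%) and 7 (16.3%) at the same site (against 8.45%), and the median signal over the 43 genes was 0. The summits of mdf-1, cki-2, cyb-3, spd-1, icp-1, cya-1, wee-1.3, cye-1, cdk-2, cdc-25.3, cyk-4, fzr-1 and bub-1 lay outside that window, and the largest signal of cdc-25.2 in it was 40.6. Over the whole gene body, 35 genes (81.4%) had a pooled summit (against 63.1%), 31 (72.1%) had summits in both replicates (against 49.0%), and the median was 49.7. Starts of protein-coding transcripts alone gave a median of 40.6, and assignment to the nearest start a median of 0 with 20 genes (46.5%, against 38.6%). With the stronger peaks alone, down to rank 15000 of each list, 22 genes (51.2%) had a pooled summit (against 26.7%), 11 (25.6%) had summits in both replicates (against 13.2%) and 6 (13.95%) at the same site (against 7.45%). Without either replicate, the median lay between 21.4 and 23.0 and the genes with an E2F word at the summit numbered 1 to 3; replicate lists have their own signal scale. The causes of these shifts were not tested. With 50 bp as the limit for the same site 9 genes were counted, and with 200 bp 17. These counts are given as values, without a share over all genes. No paired analysis was possible because there was 1 group and no test. Read depth is unknown, so how far it limits these counts was not tested.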
